A study of Mus musculus with 12 samples.

Results

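The replication-dependent and linker histone genes were taken as the protein-coding genes of the mm10 RefSeq table whose symbols begin with Hist1h to Hist4h, or with H1f, H2ac, H2bc, H3c or H4c and a digit. This gave 67 genes among 21468 protein-coding genes with a known strand. They comprised 10 linker histone (H1) genes, 17 H2A, 16 H2B, 12 H3 and 12 H4 genes. Of these, 53 lay in the large cluster on chromosome 13, 10 in the small cluster on chromosome 3, and 4 H1 genes elsewhere. No gene of chromosome 11 was included, because the table names the genes of that cluster by other symbols.

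H3K36ac, the acetylation of lysine 36 of histone H3, was mapped by ChIP-seq in spermatogonia-enriched testis cells at postnatal day 5 (Pnd 5). There were 3 WT and 3 Sirt7-/- samples of 50000 cells each, numbered 2, 3 and 4 in both genotypes, each from a different mouse. SIRT7 is a nuclear deacetylase of H3K36ac, and the Sirt7-/- mice lacked it in all cells. The cells had been enriched by differential plating rather than sorted, so testis somatic cells may have remained. By flow cytometry, shown for WT cells, the paper reports that most isolated cells carried PLZF, a marker of undifferentiated spermatogonia. Of all protein-coding genes, 19.3% had a peak in at least 1 Sirt7-/- sample and 5.12% in at least 1 WT sample. Of the 10 spermatogonial marker genes examined, 4 (40.0%) had a peak (Dazl, Gfra1, Uchl1 and Zbtb16), each in 1 Sirt7-/- sample. Peaks lay at 1 of 5 Sertoli and 1 of 5 Leydig cell markers (20.0% each, near the share of all genes), again in 1 Sirt7-/- sample each. None of the 4 myoid, 4 macrophage and 3 endothelial markers had one. No marker of any list had a peak in a WT sample, so that the peak lists do not settle the cell type.

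Core histones H2A, H2B, H3 and H4 form the nucleosome, and H1 binds the linker DNA between nucleosomes. Most of these proteins are made in S phase from short, intronless genes that lie in clusters and whose mRNAs end in a stem-loop instead of a poly(A) tail. A few linker genes outside the clusters, such as H1f0 and H1f10, are expressed independently of replication, and H1f6, H1f7, H1f8, H2ac1 and H2bc1 are known from germ cells.

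A peak is a stretch in which MACS2 found the ChIP signal above the input library of the same sample, and a gene had a peak when any part of one lay within 3 kb of its start. The lists held 906, 64 and 294 peaks in WT 2, 3 and 4, and 2840, 2045 and 2591 in Sirt7-/- 2, 3 and 4. The groups did not overlap, and the exact permutation test reached p = 0.1, two-sided, which is the smallest that 3 against 3 samples allow. The lists carry no read coverage, so a missing peak means that none was called, not that the mark was absent.

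The promoters of the 4 genes with a peak are shown first, with those of 2 cluster genes without one, so that the linker genes outside the clusters can be set beside cluster genes. Each runs from 250 bases before the start to 20 bases after it, 5′ to 3′ on the strand of the gene, as RefSeq gives it for GRCm38.p6. Capitals mark the letters of 4 motifs on either strand. The motifs are the TATA box (TATAAA), the CCAAT box (CCAAT), the octamer (ATTTGCAT), to which Pou2f1 (Oct-1) binds at H2B genes, and AAACACA, known as the H1 box. Their distance from the start was not considered, so a marked stretch need not be a working element. H1f0 is at chr15:79027962-79028231 (+), H1f10 at chr6:87981463-87981732 (-), H3c11 at chr13:21783378-21783647 (-) and H2ac22 at chr13:21787229-21787498 (-). The genes without a peak are H1f4, a linker gene of the chromosome 13 cluster at chr13:23622539-23622808 (-), and H2bc14, an H2B gene with an octamer at chr13:21721794-21722063 (+).
H1f0: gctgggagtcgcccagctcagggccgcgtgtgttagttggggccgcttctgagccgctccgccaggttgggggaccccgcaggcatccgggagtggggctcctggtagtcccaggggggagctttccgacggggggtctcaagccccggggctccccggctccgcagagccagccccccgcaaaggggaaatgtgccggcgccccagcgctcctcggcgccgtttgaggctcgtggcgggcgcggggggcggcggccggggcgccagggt
H1f10: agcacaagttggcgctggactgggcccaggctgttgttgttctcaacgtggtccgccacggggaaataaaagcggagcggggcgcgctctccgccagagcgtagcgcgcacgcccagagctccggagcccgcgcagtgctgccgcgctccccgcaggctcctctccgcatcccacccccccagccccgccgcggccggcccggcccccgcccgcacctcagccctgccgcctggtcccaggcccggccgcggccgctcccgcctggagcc
H3c11: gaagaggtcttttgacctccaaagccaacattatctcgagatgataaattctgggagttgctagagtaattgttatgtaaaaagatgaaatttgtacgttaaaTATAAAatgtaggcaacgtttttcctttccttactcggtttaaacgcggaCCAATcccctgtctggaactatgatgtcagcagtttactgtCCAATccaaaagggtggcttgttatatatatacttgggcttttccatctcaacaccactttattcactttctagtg
H2ac22: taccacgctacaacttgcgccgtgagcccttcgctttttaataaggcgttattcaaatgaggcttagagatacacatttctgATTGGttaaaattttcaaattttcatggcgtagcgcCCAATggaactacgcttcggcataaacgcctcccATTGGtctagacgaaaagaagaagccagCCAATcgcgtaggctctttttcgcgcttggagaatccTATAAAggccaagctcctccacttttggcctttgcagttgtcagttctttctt
H1f4: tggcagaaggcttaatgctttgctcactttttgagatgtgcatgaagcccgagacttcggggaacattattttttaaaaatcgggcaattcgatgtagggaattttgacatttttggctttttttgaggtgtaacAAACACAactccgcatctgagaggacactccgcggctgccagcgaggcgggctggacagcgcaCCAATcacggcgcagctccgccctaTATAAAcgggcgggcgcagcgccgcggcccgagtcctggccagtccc
H2bc14: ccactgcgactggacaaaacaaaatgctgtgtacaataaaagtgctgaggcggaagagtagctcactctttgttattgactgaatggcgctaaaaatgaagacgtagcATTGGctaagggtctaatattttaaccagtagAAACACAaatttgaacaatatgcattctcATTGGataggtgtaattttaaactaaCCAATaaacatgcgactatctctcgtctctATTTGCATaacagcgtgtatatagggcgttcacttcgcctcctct

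Promoter sequences of 300 bases (50 of them after the start) were at hand for 62 of the 67 genes and for 17492 protein-coding genes in all. The letters of these motifs, counted anywhere in the window, were frequent in the histone promoters. CCAAT was present in 51 of 62 (82.3%, against 39.2% of all promoters), including every H2A, H2B and H3 promoter, and TATAAA in 34 (54.8%, against 13.3%). The octamer was found in 12 (19.4%, against 1.72%), namely 6 of 17 H2A and 6 of 14 H2B promoters. AAACACA was found in 9 (14.5%, against 6.16%), of which 5 were among the 10 H1 promoters. The letters of no motif hold those of another, on either strand. None of the 4 was found in the windows of H1f0 and H1f10.

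H1f0 and H1f10 lay at the upper end of the histone promoters in GC content. GC content was 75.0% at H1f0 and 77.7% at H1f10, against a median of 45.7% over the 62 histone promoters and 56.3% over all promoters. Their CpG counts were 29 and 40, against medians of 11 and 13. High values were not confined to these genes, as the cluster genes H3c14 and H3c15 on chromosome 3 had 72.7% GC and H2ac18, of the same cluster, had 41 CpG. The other linker genes outside the clusters were lower, with 55.7% GC and 6 CpG at H1f7 and 54.7% and 5 at H1f8. CpG observed over expected, which corrects for GC content, was 0.697 at H1f0 and 0.918 at H1f10, against medians of 0.74 over the histone promoters and 0.577 over all. At the median, the histone promoters were thus lower in GC but not in CpG for their GC content.

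Only 4 of the 67 histone genes (5.97%) had a peak in any sample, against 19.7% of all protein-coding genes. These were the linker genes H1f0 and H1f10, and the cluster genes H3c11 and H2ac22, which shared 1 peak. All 4 had a peak in at least 1 Sirt7-/- sample (5.97%, against 19.3%). H1f0 alone had a peak in at least 1 WT sample (1.49%, against 5.12%) and in at least 2 Sirt7-/- samples (1.49%, against 10.3%). A peak in each of the 3 Sirt7-/- samples with none in WT was seen at no histone gene (background 2.45%), and the same held for a peak in at least 2 of them (background 6.47%).

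**Figure D1:**
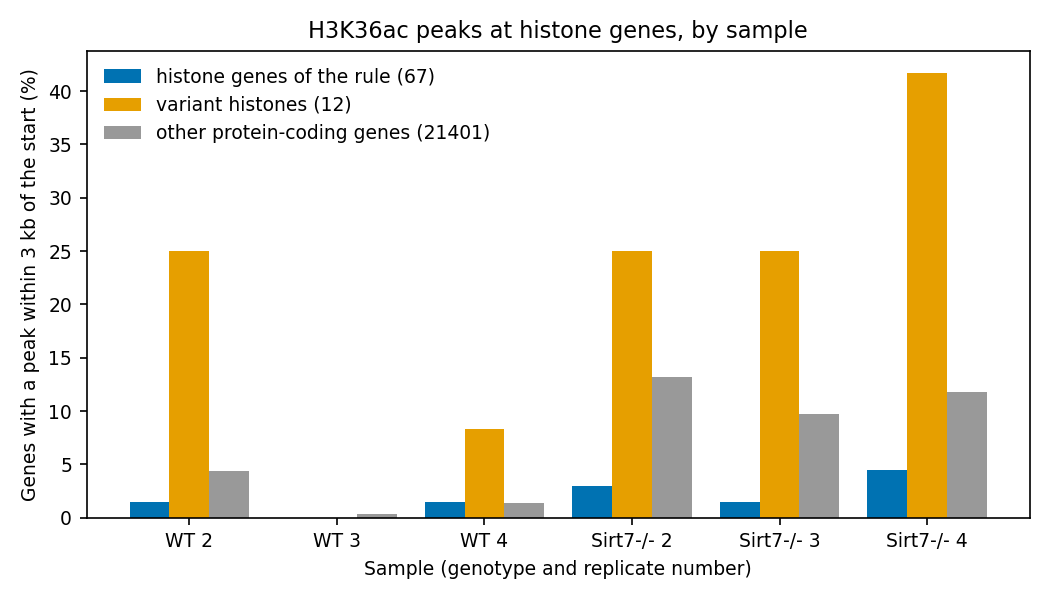
Percent of genes with an H3K36ac peak within 3 kb of the start (vertical axis) in each of the 6 samples (horizontal axis), for the 67 histone genes, 12 variant histone genes and the 21401 other protein-coding genes; each bar is 1 sample. The histone genes were between 0 and 4.48%, below the other genes in every sample except WT 4.

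By sample, 1, 0 and 1 histone genes had a peak in WT 2, 3 and 4, and 2, 1 and 3 in Sirt7-/- 2, 3 and 4. The genotypes overlapped, since Sirt7-/- 3 had the same number as WT 2 and WT 4. The Sirt7-/- mean was 2.0 ± 1.0 (SD, n = 3) and the WT mean 0.667 ± 0.577 (SD, n = 3; exact permutation test, two-sided, p = 0.3). With genes that share a peak merged, the 67 genes made 66 windows, of which 1, 0 and 1 had a peak in the WT samples and 2, 1 and 2 in the Sirt7-/- samples. Sirt7-/- samples averaged 1.67 ± 0.577 windows (SD, n = 3) and WT samples 0.667 ± 0.577 (SD, n = 3; exact permutation test, two-sided, p = 0.3). In both measures the genotypes overlapped, and neither difference passed the test.

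The share of histone genes was set against the share of the other protein-coding genes in the same sample. It was 1.49, 0 and 1.49% of the histone genes in WT 2, 3 and 4, beside 4.39, 0.318 and 1.35% of the others. In Sirt7-/- 2, 3 and 4 it was 2.99, 1.49 and 4.48%, beside 13.2, 9.76 and 11.8%. The histone share was the lower one in 4 of the 5 samples other than WT 3. In WT 3 it was 0 beside 0.318%, which says little, since a list of 64 peaks reaches few genes of any kind. The ratio of both shares was 0.34, 0 and 1.11 in the WT samples and 0.226, 0.153 and 0.381 in the Sirt7-/- samples, so that the WT ratios spanned all Sirt7-/- ratios. The mean ratio was 0.253 ± 0.116 for Sirt7-/- (SD, n = 3) and 0.482 ± 0.566 for WT (SD, n = 3; exact permutation test, two-sided, p = 0.8). The WT mean rested on WT 4, in which 1 gene made the share, and without it the difference changed sign (0.253 in Sirt7-/- against 0.17 in WT).

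Peaks at histone genes were 0.11% of all peaks in WT 2, 0% in WT 3 and 0.34% in WT 4, and 0.0704, 0.0489 and 0.0772% in Sirt7-/- 2, 3 and 4. These shares rest on 0 to 2 peaks each. The exact (Clopper-Pearson) 95% confidence interval was 0.00861 to 1.88% in WT 4 and 0.00853 to 0.254% in Sirt7-/- 2. In WT 3 the same interval reached from 0 to 5.6%, and by the rule of 3 counts the 0 of 64 peaks allows a share of up to 4.69%. The intervals cover counting error only. The mean share was 0.0655 ± 0.0148% for Sirt7-/- (SD, n = 3) and 0.15 ± 0.174% for WT (SD, n = 3; exact permutation test, two-sided, p = 0.7). Without WT 4 this difference also changed sign, with 0.0655% in Sirt7-/- and 0.0552% in WT.

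The DNA covered by these peaks was 0.215, 0 and 0.312 kb in WT 2, 3 and 4, and 1.167, 0.294 and 0.585 kb in Sirt7-/- 2, 3 and 4. Sirt7-/- 3 lay below WT 4, so the groups overlapped. The means were 0.682 ± 0.445 kb (SD, n = 3) and 0.176 ± 0.16 kb (SD, n = 3), respectively (exact permutation test, two-sided, p = 0.2). The median width of a peak at a histone gene was 215 bp in WT 2, 312 bp in WT 4, and 583.5, 294 and 292.5 bp in Sirt7-/- 2, 3 and 4. Peaks at other promoters had medians of 376.5 and 297.5 bp in WT 2 and WT 4, and 491, 457 and 468 bp in the Sirt7-/- samples.

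H1f0 was the histone gene with peaks in most samples. It encodes the linker histone H1.0, which accumulates in differentiated and slowly dividing cells, and lies on the + strand of chromosome 15 (chr15:79028212-79030504). Peaks were called in Sirt7-/- 2, 3 and 4 and in WT 2 and 4, and none in WT 3, the list with 64 peaks. All 5 peaks covered the start of the gene. In Sirt7-/- 2 the peak ran from 212 bp before the start to 729 bp after it (942 bp), in Sirt7-/- 3 from 125 bp before to 168 bp after (294 bp), and in Sirt7-/- 4 from 236 bp before to 128 bp after (365 bp). In WT 2 it ran from 153 bp before to 61 bp after the start (215 bp), and in WT 4 from 147 bp before to 164 bp after (312 bp). The promoter sequence printed for H1f0 therefore overlaps the peak of every sample that had one.

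**Figure D2:**
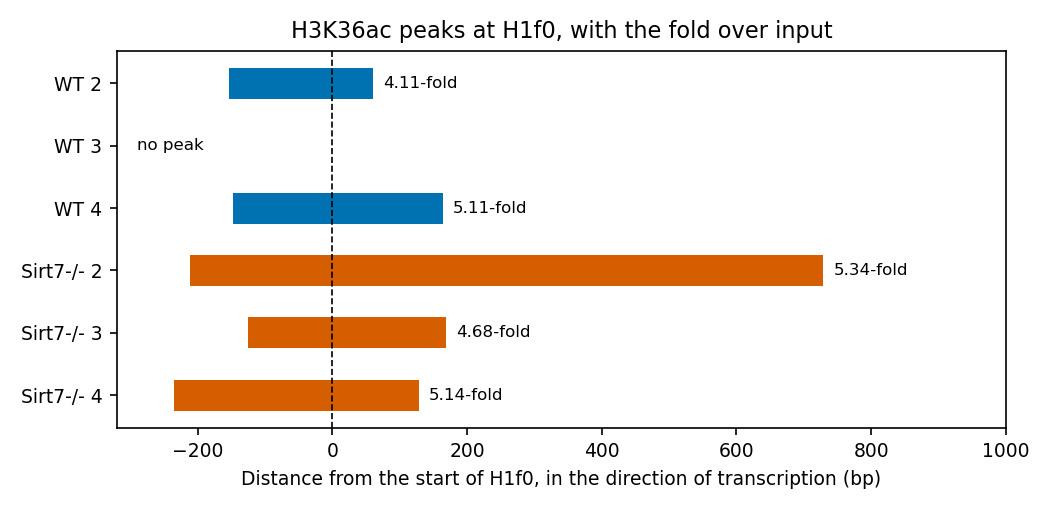
Extent of the H3K36ac peak at H1f0 in each sample (rows), in bp from the start of the gene along the direction of transcription (horizontal axis), with the fold over input beside it; blue bars are WT and orange bars Sirt7-/- samples. Each of the 5 peaks spans the start, and that of Sirt7-/- 2 reaches farthest into the gene (729 bp).

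The fold over input of the H1f0 peak was 4.11 in WT 2 and 5.11 in WT 4, and 5.34, 4.68 and 5.14 in Sirt7-/- 2, 3 and 4. The ranges overlapped. The median fold of all promoter peaks in the same lists was 4.45 and 5.01 in the WT samples, and 4.08, 4.69 and 4.11 in the Sirt7-/- samples, so that H1f0 stood above the median of its list in WT 4, Sirt7-/- 2 and Sirt7-/- 4. The -log10 q of the peak was 1.43 and 2.26 in WT 2 and WT 4, and 4.62, 2.50 and 5.24 in Sirt7-/- 2, 3 and 4. Ranked by this value, H1f0 was peak 237 of 2840 in Sirt7-/- 2 (8.35% from the top) and 130 of 2591 in Sirt7-/- 4 (5.02%). It was in the middle of the list in Sirt7-/- 3 (54.1%) and WT 4 (41.8%) and near the end in WT 2 (86.2%). Presence in 3 of 3 against 2 of 3 samples is no difference that this design can test. The peaks also lay within 3 kb of Gcat, an enzyme gene of glycine metabolism that starts 2662 bp from the start of H1f0, so the window is shared by both genes.

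H1f10 encodes the linker histone H1x and lies on the - strand of chromosome 6 (chr6:87980421-87981482). It had a peak in Sirt7-/- 2 and in no other sample. The peak was 225 bp wide and ran from 41 bp before the start to 183 bp after it, with a fold of 4.19 and a -log10 q of 2.10 (rank 1494 of 2840). The 2 other linker genes outside the clusters had no peak. H1f7, a spermatid histone gene on chromosome 15, was 38698 bp from the nearest peak of any sample, and H1f8, the oocyte linker gene on chromosome 6, was 136146 bp away. Their promoters had a CpG observed over expected of 0.261 and 0.226.

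The chromosome 13 cluster spans 2220 kb (chr13:21715711-23934913) and held 53 of the histone genes, 6 of H1, 13 of H2A, 14 of H2B, 9 of H3 and 11 of H4. Over all 6 samples 1 peak was called in this span, in Sirt7-/- 4. It lay at chr13:21784177-21784396 (220 bp), with a fold of 4.01, a -log10 q of 1.88 and rank 1790 of 2591. The peak was 780 to 999 bp upstream of the start of the H3 gene H3c11 (chr13:21782915-21783397, - strand). It was also counted for the H2A gene H2ac22 (chr13:21786774-21787248, - strand), because its near edge was 2852 bp downstream of that start, beyond the end of this short gene. H2bc22 and H1f5, with starts 3087 and 3552 bp from the peak, fell just outside the 3 kb limit. H3c11 and H2ac22 thus stand for 1 peak in 1 sample.

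The genes of the cluster fell into 4 blocks separated by more than 100 kb. The first block, chr13:21715711-21833475, held 17 histone genes and the single peak. The second, chr13:22035122-22043658, held 5, the third, chr13:23531044-23764412, held 29, and the fourth, chr13:23933725-23934913, held the testis genes H2bc1 and H2ac1. None of the last 3 blocks had a peak in any sample. In the third block the histone genes were 516801 to 749425 bp from the nearest peak. The span as a whole also held 51 other protein-coding gene starts, 36 of them vomeronasal receptor (Vmn1r) genes, and none had a peak. On all of chromosome 13, 18.6% of protein-coding genes had one. The nearest peaks outside the cluster were 184566 bp before it, at Zkscan8, and 345556 bp after it, at Carmil1, both called in Sirt7-/- 2 only.

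**Figure D3:**
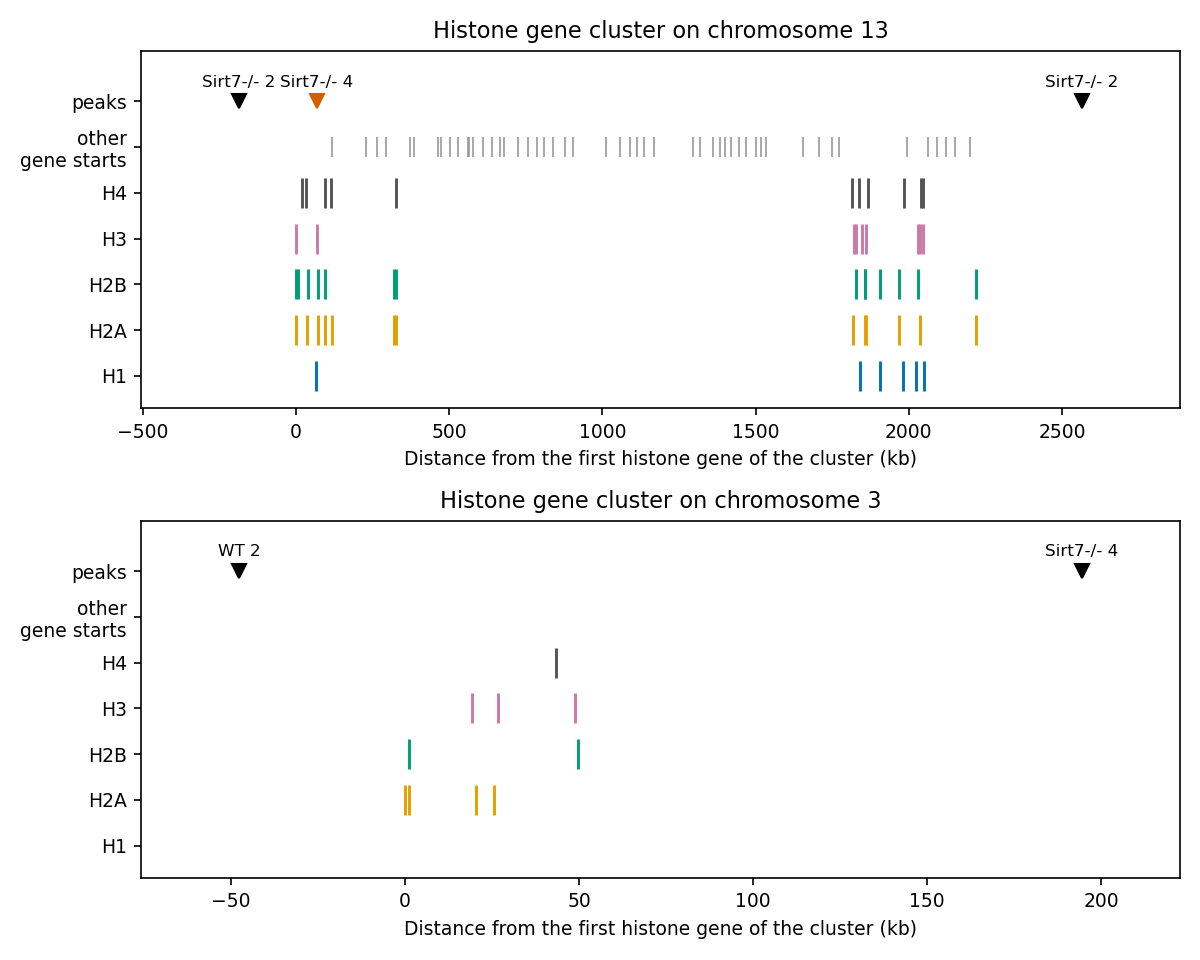
Histone gene starts of the chromosome 13 and chromosome 3 clusters by class (rows H1 to H4), starts of other protein-coding genes between the first and the last histone gene, and all peaks of the 6 samples from the nearest one before to the nearest one after each cluster (triangles, with the sample), against the distance from the first histone gene in kb. A single peak, in Sirt7-/- 4 (orange), falls inside the chromosome 13 cluster, and none inside the chromosome 3 cluster.

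The chromosome 3 cluster (chr3:96219885-96270192, 50.3 kb) held 4 H2A, 2 H2B, 3 H3 and 1 H4 genes and no peak in any sample. The nearest peak before it, 47.1 kb away in WT 2, was at Sf3b4, a splicing factor gene, and the nearest one after it was 144 kb away, in Sirt7-/- 4. On chromosome 3, 22% of protein-coding genes had a peak. The distance from a gene start to the nearest peak of any sample had a median of 259 kb over the 63 genes of the chromosome 13 and 3 clusters, and of 94.2 kb over the other protein-coding genes.

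By class, peaks were found at 2 of 10 H1, 1 of 17 H2A, 0 of 16 H2B, 1 of 12 H3 and 0 of 12 H4 genes. The H2A and the H3 gene had the same shared peak. Of all protein-coding genes, 19.7% had a peak in any sample. The share of H1 genes was near this value, and those of the other classes were below it. The 8 H1 genes without a peak included H1f1, H1f2 and H1f3, which are among the somatic linker genes of the cluster. Among the 16 H2A genes without one were H2ac4, H2ac6 and H2ac18, and among the 16 H2B genes H2bc4, H2bc12 and H2bc14. The 11 such H3 genes included H3c1, H3c2 and H3c13, and the 12 H4 genes H4c1, H4c2 and H4c14. Altogether 63 of the 67 genes had no peak.

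The authors kept only reads that map to 1 place, and the coding parts of these genes are near copies of each other. As a rough guide to this, the 32-base words within 500 bp downstream of a gene start were examined on GRCm39. The measure is the percent of these words that occur elsewhere in the genome. The reads were paired and longer than 32 bases, so a recurring word need not leave a read without a unique place. The percent is thus not the share of sequence that unique reads could not cover. The median was 57.0% for the 67 histone genes and 0.0% for the other protein-coding genes, and 53 of 67 (79.1%) reached at least 10%, against 13.6% of the others. By class the median was 71.1% for H3, 66.4% for H2A, 59.7% for H2B, 43.4% for H4 and 0.1% for H1. The pairs H3c14 and H3c15 on chromosome 3, and H2ac23 and H2ac24 on chromosome 13, reached 100%. Upstream of the start the words recurred less, with a median of 3.6%.

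Across all genes the recurrence of words moved with the share that had a peak. It was 23.7% of the other genes with under 10% recurring words downstream, 12.7% of those with 10 to 50%, and 1.48% of those with 50% or more. The histone genes with a peak were 2 of 14, 0 of 14 and 2 of 39 in the same bands. In the first band these were H1f0 and H1f10, or 14.3% of the histone genes there, and in the last band H3c11 and H2ac22, with their shared peak. With under 10% recurring words upstream, 3 of 35 histone genes (8.57%) had a peak, against 23.7% of the other genes. The part of recurrence in the missing peaks was not tested, and the lists do not show how many unique reads such windows received.

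**Figure D4:**
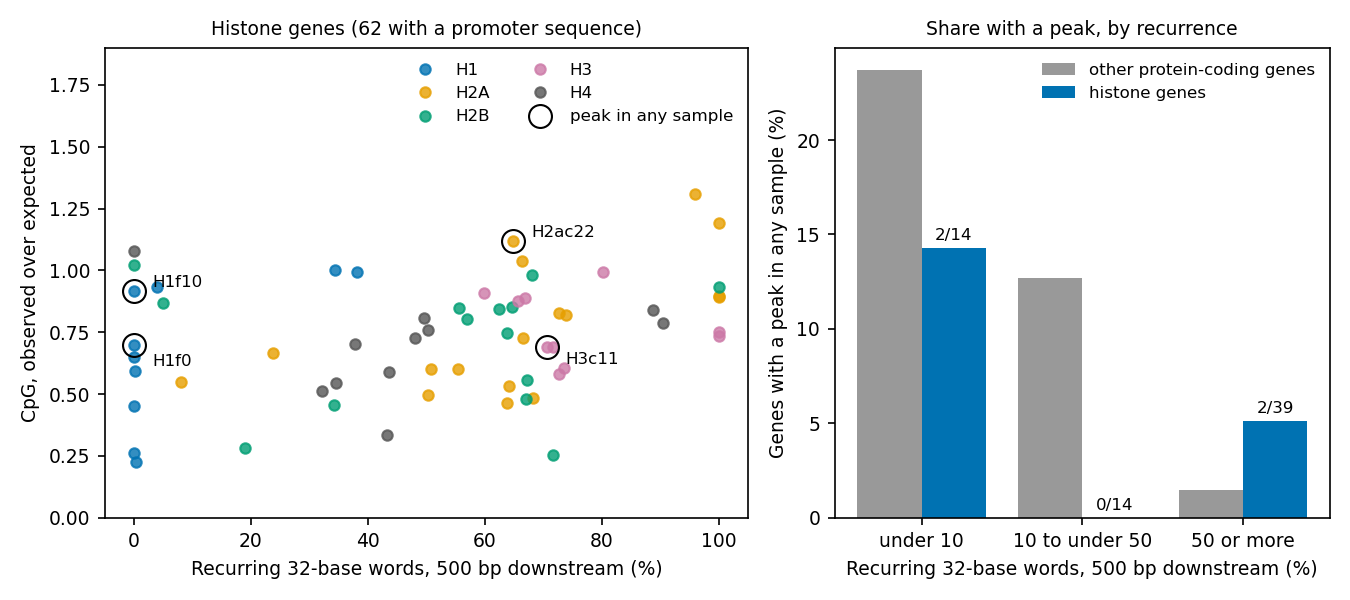
Left, the 62 histone genes with a promoter sequence by the percent of recurring 32-base words in the 500 bp downstream of the start (horizontal axis) and CpG observed over expected in the promoter (vertical axis, no unit), coloured by class, with the 4 genes that had a peak circled. Right, percent of genes with a peak in any sample by the same measure of recurrence, for the other protein-coding genes (grey, 23.7, 12.7 and 1.48%) and the histone genes (blue, with numbers of genes).

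The 14 histone genes with under 10% recurring words downstream were all 4 linker genes outside the clusters, and H1f1, H1f3, H1f5, H1f6, H2ac1, H2bc6, H3c7, H4c1, H2bc18 and H4c14. Besides H1f0 and H1f10, none of them had a peak. The start of H2bc6 is uncertain, since its RefSeq model is 37455 bp long. CpG observed over expected was at least 0.6 for 7 of the 14, while H3c7 and H4c14 had no value. Of the 7, 2 had a peak, against 36% of 7729 other genes with the same limits. Over all recurrence levels, 4 of 42 histone genes with a ratio of at least 0.6 had a peak (9.52%), against 35.6% of the other genes. Histone genes are also short, and among genes under 1000 bp 2 of 58 histone genes (3.45%, by 1 shared peak) and 0.88% of the others had one. Between 1000 and 10000 bp it was 2 of 7 histone genes and 14.3% of the others.

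A few histone genes carried older names of the same kind but other symbols in the table and were not among the 67. H2aw and H2bu2 on chromosome 11 had no peak within 208884 and 214658 bp, respectively, and H4bc24 in the chromosome 13 cluster had none. H4f16, an H4 gene on chromosome 6 (chr6:136803993-136804431, - strand), had a peak of 403 bp in Sirt7-/- 4, from 61 to 463 bp after its start, with a fold of 3.75 and rank 2111 of 2591.

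Peaks were also counted at the genes for variant histones, which replace the canonical ones outside S phase. Of 16 genes listed, 12 were used, and 5 of these (41.7%) had a peak in any sample. This compares with 19.7% of all genes and 35.6% of the other genes with a CpG observed over expected of at least 0.6. That limit was not applied to this list or the lists that follow, which held genes below it or without a value. H3f3a, for H3.3, was called in 3 Sirt7-/- and 2 WT samples, Macroh2a1 in 3 and 1, and Macroh2a2 in 3 and 0 (background 2.45%). H3f3b, the other H3.3 gene, was called in 1 sample of each genotype and H2ax, named here although outside the naming rule, in 1 Sirt7-/- sample. By sample, peaks were at 25.0, 0 and 8.33% of these genes in WT 2, 3 and 4, and at 25.0, 25.0 and 41.7% in Sirt7-/- 2, 3 and 4, so the genotypes met at 25.0%.

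Among 22 genes for the transcription and 3′ end processing of histone mRNAs, 9 (40.9%) had a peak in any sample, against 19.7% of all genes and 35.6% of the other genes with a CpG observed over expected of at least 0.6. Cpsf2, a subunit of the processing machinery, was called in 3 Sirt7-/- and 1 WT samples, and Pou2f1 in 3 and 0, a pattern found at 2.45% of all genes. Cdk2, the S phase kinase, Ybx1, Srrt and Eri1, an exonuclease of the stem-loop, were called in 2 Sirt7-/- and no WT samples, and 6.47% of all genes were called in at least 2 Sirt7-/- and no WT samples. Slbp, the stem-loop binding protein, was called in 1 WT sample. Npat, the coactivator of clustered histone genes, and Casp8ap2, Lsm10 and Lsm11, which act in the histone locus body or in 3′ processing, had no peak. The genes named after Eri1 were chosen after their values were seen.

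Of 24 histone chaperone genes, 16 (66.7%) had a peak in any sample, against the same 19.7% and 35.6%. The chaperones were not limited by CpG, as the genes behind the 35.6% were. Asf1a, which hands H3 and H4 to other chaperones, Nap1l1, a chaperone of H2A and H2B, and Rbbp4 were each called in 3 Sirt7-/- and 1 WT samples. Ubn2, of the HIRA complex, was called in 3 Sirt7-/- and no WT samples (background 2.45%), and Supt16, a subunit of the FACT complex, in 2 Sirt7-/- and 1 WT samples. These lists were chosen with earlier results of the data known, and their counts are descriptions without a test.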

How the data were processed

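H3K36ac ChIP-seq was measured in 3 WT and 3 Sirt7-/- samples, and the 6 input libraries entered only through peak calling. Per the labels and methods, the authors aligned reads to mm10 with Bowtie2 2.4.4.1, retained non-duplicate reads that map uniquely (mapping quality 30 or more) and called each sample's broad peaks with MACS2 2.2.5 (broad cutoff 0.1). For each peak the deposited lists hold its position, a score (not used), the fold over input (a ratio) and the -log10 of p and q, used here only within a list. How many reads passed filtering is unknown, so the precision of a call is unknown.

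Gene starts came from the RefSeq table of GRCm38.p6, with strand from RefSeq (17492 genes) or GENCODE vM39 (3976 more), for 98.0% of 21900 protein-coding genes. Of the 67 members, 5 took their strand from GENCODE. 3 pseudogenes were left out. Members and lists were chosen with earlier results of these data known. Every gene with a peak is named, as are up to 3 genes per class without one and, of each list, the 4 with peaks in most samples, with all ties for the last place. The markers were read as counts only. Groups were compared by two-sided exact permutation tests over 20 assignments. The join of peaks to starts was tested on 2000 simulated peaks, of which 100% were assigned correctly. Recurring words were counted on GRCm39, which gives a value for 89.6% of the other genes. Their windows were set at GENCODE vM39 gene starts, which can differ from the RefSeq starts used for the peaks. Alternatives were a stricter -log10 q, wider peaks, equal list sizes, other windows and starts, a replicate block, each replicate left out and other sets of genes. The software was matplotlib 3.10.9, numba 0.67.0, SciPy 1.17.1, pandas 2.3.3 and NumPy 2.4.6 under Python 3.11.15.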

Additional observations from a re-analysis of the deposited data

How the results depend on the processing

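With WT as the subtrahend, the difference in histone gene windows with a peak was 1.0 and stayed between 0 and 1.33 over 18 alternatives, and that in genes was 1.33 (0 to 2.0 over 16). All differences were 0 when each list was cut to its 64 best peaks, which held no histone gene. For windows of the chromosome 13 and 3 clusters alone it was 0.333 (exact permutation test, p = 1.0). The ratio of histone to other shares (difference -0.229) reversed to 0.0747 with peaks of at least 500 bp, and the share of all peaks (-0.0847) to 0.0243 there, because a single histone peak is that wide. Leaving out 1 sample each gave -0.47 to 0.083 for the ratio and -0.16 to 0.0103 for the share of peaks, both reversed without WT 4. The ratio's difference was also larger at a -log10 q of at least 2 (-0.427) and among genes with under 10% recurring words (-1.5, from 0.808 in Sirt7-/- and 2.31 in WT). The corresponding ranges were 0.667 to 1.33 for windows, 0.833 to 1.83 for genes, 0.264 to 0.7 kb for the covered length and 29.8 to 175 bp for the width. No test passed 0.05 in any alternative, which 3 against 3 samples could not do. The width had no value with peaks of at least 500 bp or equal list sizes.

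The number of histone genes with a peak in any sample was 4, and it was 2 at a -log10 q of at least 2, 1 with peaks of at least 500 bp, 6 with a window of 5000 bp and 2 without Sirt7-/- 4. Other sets of genes were chosen after seeing the data. Among the 14 genes with under 10% recurring words the difference in windows was 0.667 (exact permutation test, p = 0.6), and with genes of older Hist symbols added (71 in all) it was 1.33 (exact permutation test, p = 0.3). No histone gene was called in at least 2 Sirt7-/- and no WT samples in any alternative.

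Deviations of same-numbered samples were correlated at 0.0281, 0.0197 and 0.00767 for numbers 2, 3 and 4, and those of other pairs at -0.0275 to 0.00912. The same-numbered WT sample gave the highest value for Sirt7-/- 2 and Sirt7-/- 3, but not for Sirt7-/- 4. All values were small, and with lists as short as that of WT 3 they cannot exclude a shared litter, day or batch. Whether the numbers mark pairs is not known. With the replicate block the exact p was 0.25 for windows, genes and covered length, and 0.75 for the ratio and the share of peaks. The smallest that it allows is 0.25.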
